A study of Drosophila melanogaster with 36 samples.

Results

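Cell cycle genes were followed across 4 groups of sorted Drosophila melanogaster disc cells, as a named list of 33 genes out of the 17807 genes counted. The list was drawn up by gene name, and each gene was placed in a phase by its textbook role. It holds 11 genes of DNA replication (S phase), 9 genes that control entry into S phase (G1/S) and 13 genes of entry into and passage through mitosis (G2/M). All 33 were found by symbol, and all 33 had enough reads to be tested.

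RNA was measured in cells of the haltere and wing imaginal discs, the larval epithelia that form the balancing organ and the wing of the adult fly. Haltere nub and wing nub cells came from yw;nub.gal4;uas-kash.GFP larvae, in which nub.gal4 drives a GFP held at the nuclear envelope in the distal primordium of the appendage. Haltere tsh and wing tsh cells came from yw;tsh.gal4;uas-kash.GFP larvae, in which tsh.gal4 is active in the proximal disc, including the future body wall. All groups share the yw background and the kash.GFP transgene, and each carries a driver, nub.gal4 or tsh.gal4. Each group has 2 libraries, made from wandering L3 larvae kept at 25 °C. The labels say neither how many discs were pooled nor whether replicates came from separate cohorts, and p-values reflect only the variation among these libraries, which may be technical. Since nub and tsh cells were sorted from separate strains, effects of strain and of domain cannot be told apart.

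In the division cycle, the transcription factor E2F1 with its partner DP switches on CycE and the replication genes, and the retinoblastoma protein Rbf holds E2F1 in check. Cyclin E with Cdk2 starts S phase, while cyclins A and B with Cdk1 start mitosis once the Cdc25 phosphatase String, encoded by stg, removes the inhibitory phosphates that kinases such as Myt1 place on Cdk1. In Drosophila imaginal discs the transcription of CycE and of stg is known to limit entry into S phase and into mitosis, and the haltere disc is the smaller of the pair.

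Library totals were 96525031 and 92342738 counts for haltere nub and between 15110163 and 17705451 for the other 6 libraries, so a separate sequencing batch of haltere nub cells cannot be told apart from its tissue. Ubx, Antp, nub and tsh followed the labels. Ubx, the Hox gene of the haltere, was called higher in the haltere in both domains. The driver genes nub and tsh were called higher in their own cells in both discs. One library, wing tsh replicate 1, differed from the rest in its weakly expressed genes, with 5111 genes between 1 and 5 CPM (read counts scaled to the library total), against 1805 to 2315 in the other libraries. Its 6 hemocyte (blood cell) markers summed to 31.2 CPM, against at most 9.76 CPM elsewhere. The neuron and glia markers brp, nSyb, Syt1, repo and, by little, moody were also highest there, whereas elav was not. For brp the level was 15.2 CPM, against at most 5.08 CPM elsewhere.

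Levels are given as CPM adjusted with TMM factors, which align the bulk of genes between libraries, and can be compared between libraries but not between genes, since transcript lengths were not used. The 33 genes were expressed in every library, with the lowest read number, 168, for aurA in wing tsh replicate 2. The ratio of the highest to the lowest group mean was between 1.08 for E2f2 and 1.88 for stg, with a median of 1.28. Haltere nub cells had the lowest mean for 21 of the 33 genes, including 10 of the 11 S phase, 5 of the 9 G1/S and 6 of the 13 G2/M genes. Wing tsh cells had the lowest mean for 11. Wing nub cells had the highest mean for 21 genes and haltere tsh cells for 10. Replicates of a group differed by up to 0.31 on the log2 scale in haltere nub (Mcm6), 0.42 in wing nub (dap), 0.33 in haltere tsh (Orc1) and 0.44 in wing tsh cells (aurA).

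The summed level of the 11 S phase genes was 356 and 391 CPM in haltere nub and 508 and 473 CPM in wing nub libraries. It was 471 and 464 CPM in haltere tsh and 398 and 423 CPM in wing tsh libraries. Haltere nub thus lay below every other library for this sum, with wing tsh next. For the 13 G2/M genes the sum was 947 and 981 CPM in haltere nub and 1163 and 1146 CPM in wing nub libraries, and 1238 and 1143 CPM in haltere tsh and 964 and 1022 CPM in wing tsh libraries. Here haltere nub and wing tsh libraries overlapped, and both lay below the other groups. The 9 G1/S genes summed to between 1088 and 1294 CPM, with haltere nub (1101 and 1124 CPM) inside the range of the other libraries. These sums weigh abundant genes most, E2f1 above all.

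**Figure D1:**
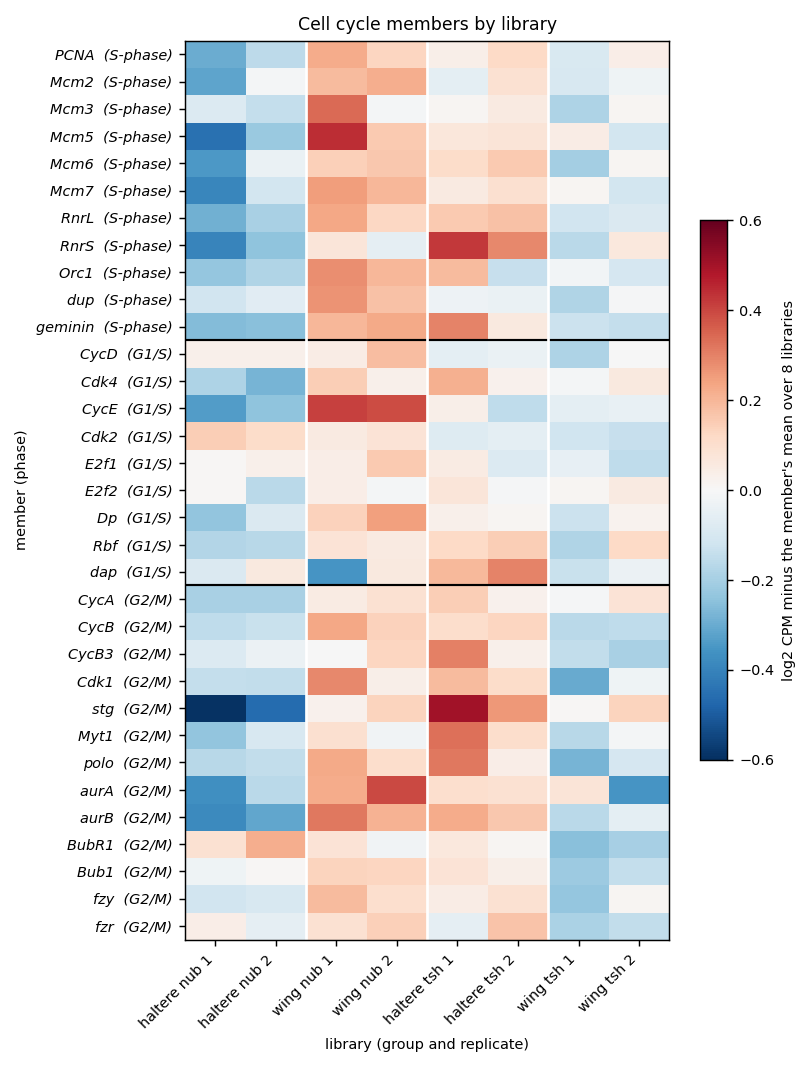
Each cell shows, for 1 of the 33 genes (rows, by phase) in 1 of the 8 libraries (columns), the log2 CPM minus that gene's mean over the 8 libraries. Blue fills most of the S phase rows in both haltere nub libraries, where 10 of 11 group means are the lowest of the 4, while G1/S rows such as Cdk2, E2f1 and E2f2 stay pale.

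The first comparison asked how the division machinery of distal haltere cells differed from that of distal wing cells. In haltere nub cells 17 of the 33 genes were lower than in wing nub cells and none was higher, by edgeR's quasi-likelihood test with a Benjamini-Hochberg adjusted p under 0.05 over all genes tested. They were 8 of 11 S phase, 3 of 9 G1/S and 6 of 13 G2/M genes. Over all 11198 genes tested, 23.3% were called in this comparison, 9.72% higher and 13.6% lower. The median log2 fold change was -0.40 for the S phase, -0.09 for the G1/S and -0.27 for the G2/M genes, beside -0.01 for all genes tested. With a trend with gene span removed, these medians were -0.31, -0.24 and -0.21, so the gap between the phases depended on that choice. The G1/S median was -0.18 without haltere nub replicate 1 and -0.15 without wing nub replicate 1. In 29 of the 33 genes both haltere nub libraries lay below both wing nub libraries, and in 2, Cdk2 and BubR1, they lay above. How many of all genes tested were separated in this way was not counted, so these numbers have no background beside them. In such RNA from many cells, fewer cells in a phase and less RNA per cell cannot be told apart.

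Cyclin E had the largest fold change of all 33 genes. CycE (chromosome 2L, 15727581 to 15748150 in the Release 6 assembly) stood at 88.2 and 94.2 CPM in haltere nub libraries, against 148 and 146 CPM in wing nub libraries. The groups were far apart, and the level in the haltere was 0.621 of that in the wing (log2 fold change -0.69 ± 0.09 SE, adjusted p = 0.000232). Its kinase partner Cdk2 had 80.1 and 78.1 CPM in haltere nub and 75.0 and 76.5 CPM in wing nub libraries (0.06 ± 0.08, adjusted p = 0.611). The gene dap, which encodes the inhibitor of the CycE and Cdk2 complex, had 38.9 and 43.1 CPM in haltere nub and 32.3 and 43.1 CPM in wing nub libraries, which overlap (0.12 ± 0.13, adjusted p = 0.555).

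Of the other G1/S genes, Dp (-0.36 ± 0.09, adjusted p = 0.0142) and Cdk4 (-0.32 ± 0.10, adjusted p = 0.0354), the kinase partner of cyclin D, were lower in haltere nub cells. Dp stood at 118 and 131 CPM there, against 153 and 165 CPM in wing nub libraries. E2f1, the activating E2F, stood at 539 and 547 CPM in haltere nub and at 552 and 598 CPM in wing nub libraries, a difference of -0.08 (95% interval -0.27 to 0.11). The repressive E2F gene E2f2 was at -0.09 (-0.31 to 0.13), and the G1 cyclin gene CycD also at -0.09 (-0.29 to 0.11). Rbf had 87.0 and 87.5 CPM in haltere nub, below the 104 and 102 CPM of wing nub libraries, but was not called (-0.24 ± 0.10, adjusted p = 0.0998).

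Among the S phase genes, the replicative helicase subunit Mcm5 (chromosome 3R, 10788524 to 10791150) had the largest fold change. Its level was 23.0 and 26.9 CPM in haltere nub and 42.7 and 35.0 CPM in wing nub libraries. The ratio was 0.642 (-0.64 ± 0.12, adjusted p = 0.00358), although the wing nub replicates were themselves apart. The helicase genes Mcm7 (-0.47) and Mcm2 (-0.36) were lower too, whereas Mcm6 (-0.34, adjusted p = 0.0549) and Mcm3 (-0.29, adjusted p = 0.11) did not pass the test. PCNA, the sliding clamp of the replication fork, had 37.0 and 40.9 CPM in haltere nub and 53.2 and 49.8 CPM in wing nub libraries (-0.40 ± 0.10, adjusted p = 0.0119).

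Ribonucleotide reductase makes the deoxyribonucleotides for replication from a large and a small subunit. RnrL, the large one, stood at 49.5 and 52.8 CPM in haltere nub and 70.9 and 65.8 CPM in wing nub libraries (-0.42 ± 0.09, adjusted p = 0.00504). RnrS, the small one, stood at 33.3 and 37.1 CPM in haltere nub and 46.1 and 42.2 CPM in wing nub libraries, and just missed the threshold (-0.33 ± 0.11, adjusted p = 0.0513). Among the genes that license origins, geminin, whose product inhibits the licensing factor Cdt1, was at 31.2 and 31.4 CPM in haltere nub and 42.9 and 43.7 CPM in wing nub libraries (-0.47 ± 0.10, adjusted p = 0.00677). The genes of Cdt1 itself, dup (-0.31), and of the origin recognition subunit Orc1 (-0.45) were lower too.

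The G2/M genes were led by the mitotic trigger and a mitotic kinase. The level of stg (chromosome 3R, 29251826 to 29255800) was 116 and 127 CPM in haltere nub and 178 and 192 CPM in wing nub libraries, which do not overlap. The ratio was 0.655 (-0.61 ± 0.10, adjusted p = 0.00144). Aurora B, the kinase of the chromosomal passenger complex, gave a like ratio of 0.656, with aurB (chromosome 2L, 10856797 to 10858094) at 19.7 and 20.7 CPM in haltere nub and 32.0 and 29.7 CPM in wing nub libraries (-0.61 ± 0.10, adjusted p = 0.00167). The centrosomal kinase gene aurA (-0.58 ± 0.16), the mitotic kinase gene polo (-0.32 ± 0.10) and the mitotic cyclin genes CycB (-0.33 ± 0.08) and CycA (-0.27 ± 0.08) were lower as well. aurA was the least expressed of the 33 genes by reads, and its SE the largest.

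The other 7 G2/M genes did not pass. They were the mitotic kinase Cdk1 (-0.31, adjusted p = 0.0744), the Cdk1 inhibitory kinase Myt1 (-0.20), the third mitotic cyclin CycB3 (-0.12) and the spindle checkpoint kinases BubR1 (0.13) and Bub1 (-0.14). The last were fzy (-0.25) and fzr (-0.12), which activate the anaphase promoting complex in mitosis and in G1. BubR1 had 142 and 155 CPM in haltere nub and 141 and 131 CPM in wing nub libraries, the haltere values above those of the wing by little.

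Among markers of other cells, 3 of 7 tracheal markers were lower and 1 higher in haltere nub cells, 1 of 7 myoblast markers (kirre) was higher, and no hemocyte, neuron or glia marker was called. Their part in the cell cycle values was not tested. The number called depended on single libraries, and fell with any 1 of these 4 left out, among the 33 and among all genes. Over the 33 genes the median was -0.29 and -0.33 without haltere nub replicate 1 or 2. It was -0.26 and -0.36 without wing nub replicate 1 or 2, beside -0.32 in the full fit. CycE, stg and aurB were called lower in each of these fits and under each other setting tried. Every other call was lost in at least 1 of these fits. With haltere nub reads thinned to the depth of the other libraries, 13 of the 33 genes were called, beside 2369 of all genes. DESeq2 called 11 of the 33, beside 2395 of all genes.

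**Figure D2:**
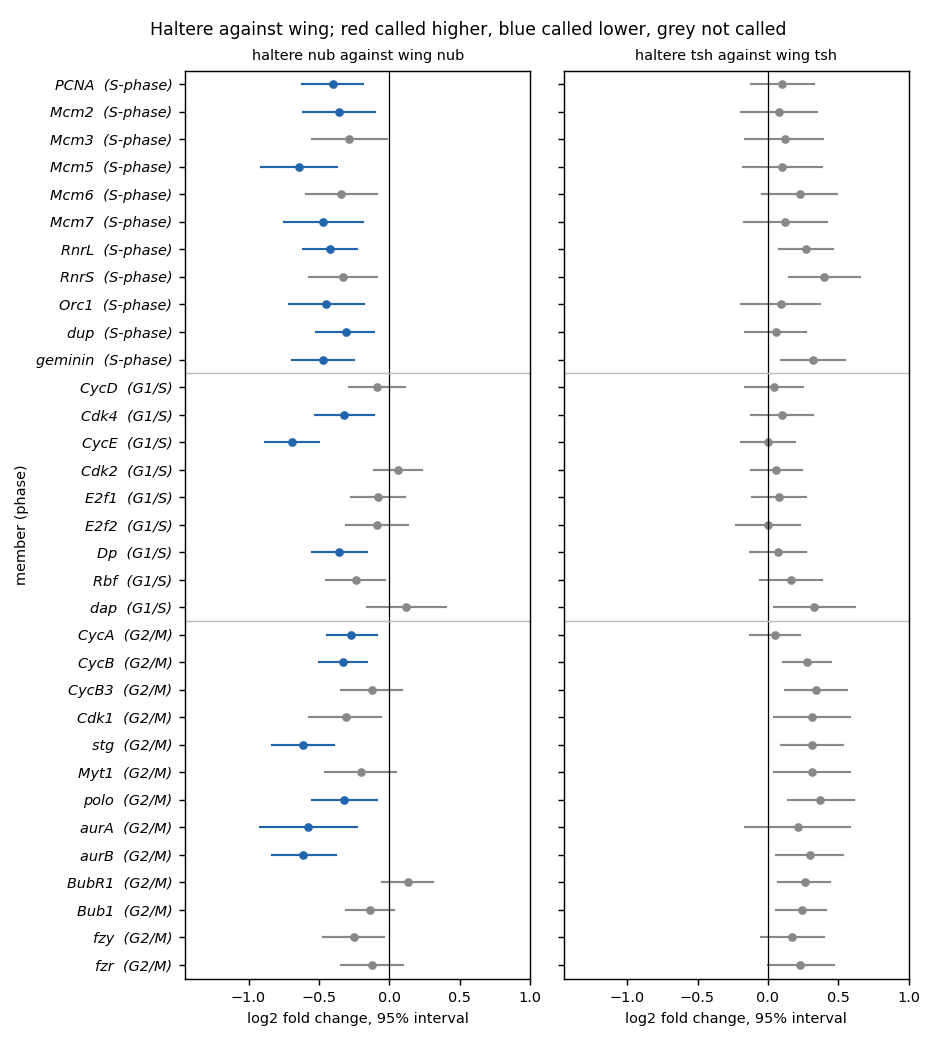
Points are log2 fold changes of haltere against wing cells with 95% intervals (horizontal axis) for the 33 genes (rows, by phase), in nub cells on the left and in tsh cells on the right; red marks genes called higher, blue genes called lower and grey genes not called. In nub cells 17 genes are blue, with CycE at -0.69 the farthest to the left, whereas in tsh cells all 33 are grey.

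In proximal cells the same comparison of discs gave no call. None of the 33 genes passed the edgeR test in haltere tsh against wing tsh cells, while 14 had an unadjusted p under 0.05. Of all 11198 genes tested, 2032 had an unadjusted p under 0.05 in that test. DESeq2 called 1 gene, CycB, higher. Of all genes tested 3.26% were called, 1.04% higher and 2.22% lower. The fold changes were 0.00 or above in all 33 genes, with medians of 0.12 for the S phase, 0.07 for the G1/S and 0.28 for the G2/M genes, beside -0.03 for all genes tested. The G1/S median was 0.01 without wing tsh replicate 1 and 0.13 without wing tsh replicate 2. Of the 33 estimates, 5 fell below 0 without wing tsh replicate 1 and 4 without haltere tsh replicate 1. In 22 genes both haltere tsh libraries lay above both wing tsh libraries, and in 11 the groups overlapped. The share of all genes tested that were so separated was not counted here either. A missed threshold does not show equal levels, and 10 of the 13 G2/M genes had an unadjusted p under 0.05.

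The small reductase subunit had the largest estimate. RnrS stood at 58.8 and 53.6 CPM in haltere tsh and 39.2 and 45.8 CPM in wing tsh libraries (0.40 ± 0.11, adjusted p = 0.0879). CycB had 172 and 175 CPM in haltere tsh and 143 and 144 CPM in wing tsh libraries, with close replicates (0.28 ± 0.08, adjusted p = 0.0842). For stg the levels were 248 and 209.7 CPM in haltere tsh and 176 and 192 CPM in wing tsh libraries (0.31 ± 0.10, adjusted p = 0.143). In each of these 3 genes the haltere libraries were the higher pair, without overlap. Of the others, polo was at 0.37 (adjusted p = 0.0992) and CycB3 at 0.34 (adjusted p = 0.112).

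CycE, the gene with the largest difference in distal cells, had 114 and 100.3 CPM in haltere tsh and 107 and 108 CPM in wing tsh libraries (0.00, 95% interval -0.19 to 0.19). E2f2 was likewise at 0.00 (-0.23 to 0.23), and CycD at 0.04 (-0.16 to 0.25). With wing tsh replicate 1 left out, the median over the 33 genes was 0.18, beside 0.17 in the full fit. With replicate 2 left out instead, which leaves replicate 1 alone in its group, it was 0.26. More genes were called in that last fit, among the 33 and among all genes tested.

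Markers of myoblasts, the muscle precursors that lie on the proximal wing disc, differed beside these values. Of 7 such genes 5 were lower in haltere tsh than in wing tsh cells and none was higher. The early myoblast gene twi had 3.62 and 3.43 CPM in haltere tsh and 12.0 and 8.55 CPM in wing tsh libraries. Summed over the 7 genes, the level was 143 and 139 CPM in haltere tsh and 238 and 208 CPM in wing tsh libraries, beside 232 and 228 CPM in haltere nub and 169.9 and 172 CPM in wing nub libraries. Most of that sum came from Mef2 and kirre. Both were present in nub libraries, with Mef2 at 112 and 115 CPM and kirre at 113 and 109 CPM in haltere nub, and Mef2 at 92.0 and 98.6 CPM and kirre at 69.6 and 64.2 CPM in wing nub libraries, whereas the other 5 were at 3.84 CPM or less there. None of the 7 was at 0 in every library. Of 7 tracheal markers 1 was lower in haltere tsh cells, and no hemocyte, neuron or glia marker was called. The part of these cells in the cell cycle values was not tested.

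Distal and proximal cells were then compared within each disc. In the haltere disc, 13 of the 33 genes were lower in nub than in tsh cells and none was higher (5 S phase, 2 G1/S and 6 G2/M genes). In the wing disc, 6 genes were higher in nub than in tsh cells and none was lower (1 S phase, 1 G1/S and 4 G2/M genes). Of all genes tested, 24.9% were called in the haltere disc, 9.96% higher and 15.0% lower. In the wing disc 13.8% were called, 5.96% higher and 7.88% lower. The median log2 fold change of the 33 genes was -0.26 in the haltere and 0.25 in the wing disc, beside -0.01 for all genes tested in each.

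Within the haltere disc stg had the largest difference. It stood at 116 and 127 CPM in haltere nub and 248 and 209.7 CPM in haltere tsh libraries, so that the nub level was 0.531 of the tsh level (-0.91 ± 0.10, adjusted p = 4.97e-05). RnrS followed with 33.3 and 37.1 CPM in haltere nub and 58.8 and 53.6 CPM in haltere tsh libraries (-0.67 ± 0.11, adjusted p = 0.000928). aurB had 19.7 and 20.7 CPM in haltere nub and 30.0 and 28.7 CPM in haltere tsh libraries (-0.54 ± 0.10, adjusted p = 0.00296). For these 3 genes the groups were well apart, and their calls held without any 1 library and under each other setting tried.

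The further S phase genes called lower in haltere nub cells were geminin (-0.44), RnrL (-0.41), Mcm5 (-0.40) and PCNA (-0.30). The G1/S genes were Cdk4 (-0.35) and Rbf (-0.31), and the G2/M genes were Myt1 (-0.39), polo (-0.34), CycA (-0.28) and CycB (-0.26). CycE was at -0.23 ± 0.09 and was not called (adjusted p = 0.0706). It was called when only the 4 libraries compared were fitted, with haltere nub reads thinned, and with a trend with gene span removed. Cdk2 lay above, with 80.1 and 78.1 CPM in haltere nub and 68.5 and 69.4 CPM in haltere tsh libraries (0.20 ± 0.08, adjusted p = 0.0914), and it was called higher once a trend with gene span was removed. BubR1 (0.12) and CycD (0.08) also had both nub libraries above both tsh libraries. The median over the 33 genes was -0.21 and -0.30 without haltere nub replicate 1 or 2. It was -0.24 and -0.30 without haltere tsh replicate 1 or 2. Fewer genes were called in each of these 4 fits, among the 33 and among all genes.

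Within the wing disc CycE had the largest difference, with 148 and 146 CPM in wing nub and 107 and 108 CPM in wing tsh libraries. Replicates were nearly equal and the groups well apart (0.45 ± 0.09, adjusted p = 0.00453). CycB had 188 and 176 CPM in wing nub and 143 and 144 CPM in wing tsh libraries (0.35 ± 0.08, adjusted p = 0.0111). The checkpoint kinase gene Bub1 had 97.2 and 96.8 CPM in wing nub and 76.2 and 80.3 CPM in wing tsh libraries (0.31 ± 0.08, adjusted p = 0.023). The kinase genes aurB (0.37) and polo (0.36) and the licensing inhibitor geminin (0.35) were higher by like amounts, with adjusted p of 0.0416, 0.048 and 0.0484.

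The genes stg, RnrS, Cdk4, CycA, Rbf and E2f2 had fold changes between -0.02 and 0.09 in the wing disc, and their groups overlapped. For stg these were 178 and 192 CPM in wing nub and 176 and 192 CPM in wing tsh libraries (0.01, 95% interval -0.21 to 0.23). The median over the 33 genes in the wing disc was 0.25 without either wing nub library. It was 0.22 without wing tsh replicate 1 and 0.28 without wing tsh replicate 2. The number called depended on the library left out, among the 33 and among all genes, but CycE was called in each fit. With the 4 wing libraries fitted alone, 1 of the 33 genes was called, again CycE, beside 907 of all genes. Markers of other cells moved in these comparisons too. In wing nub against wing tsh cells 5 of 7 myoblast markers were lower and 1 higher, 4 of 7 tracheal markers lower and 1 higher, 2 of 6 neuron and glia markers lower and 1 of 4 hemocyte markers tested lower. In haltere nub against haltere tsh cells 4 myoblast markers were lower and 1 higher, 4 tracheal markers lower and 2 higher, and 1 neuron and glia marker lower and 1 higher. The part of these cells was not tested.

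**Figure D3:**
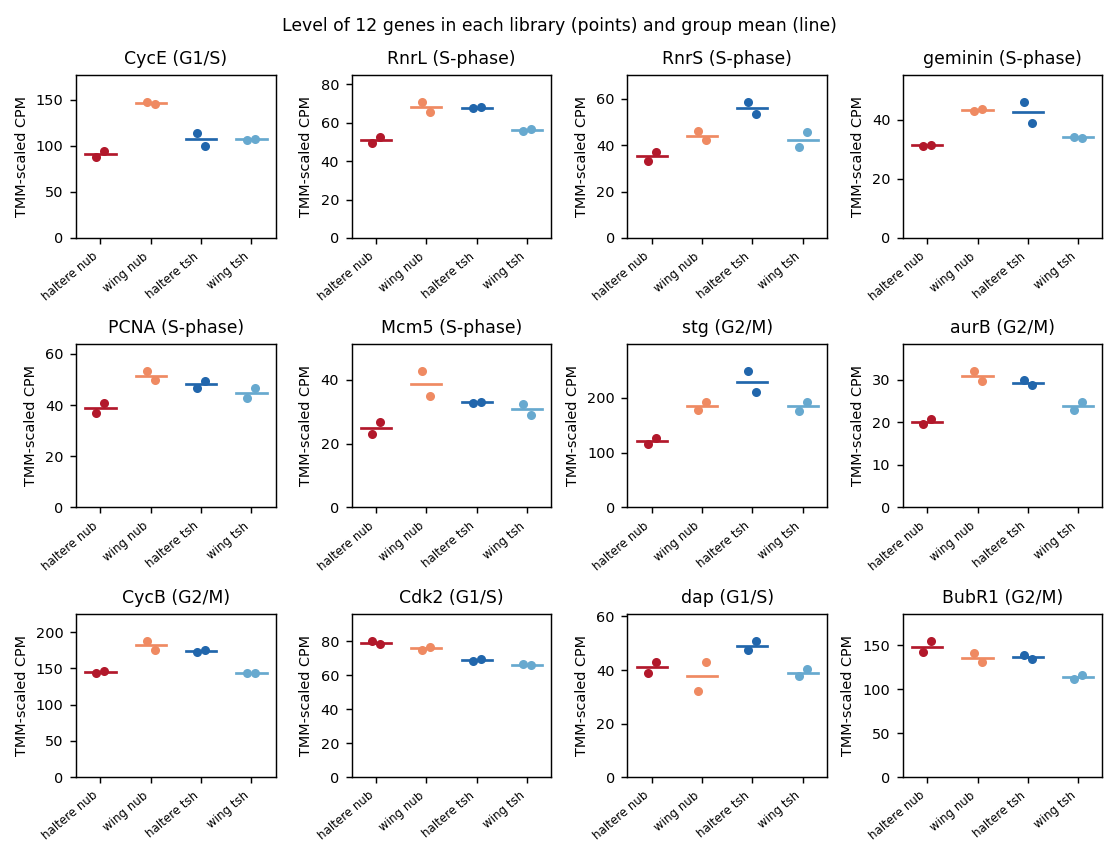
Points show TMM-scaled CPM (vertical axes, from 0) in each of the 2 libraries of the 4 groups for 12 genes, and lines show group means. CycE is low in haltere nub and high in wing nub cells with tsh cells of both discs between them, stg is lowest in haltere nub and highest in haltere tsh cells, and Cdk2 lies higher in nub than in tsh cells of both discs.

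Whether discs differed in another way in distal than in proximal cells was tested as the interaction, the haltere against wing log2 difference of nub cells minus that of tsh cells. It was below 0 and passed the test for 16 of the 33 genes (6 S phase, 2 G1/S and 8 G2/M genes) and above 0 for none. Of all genes tested, 15.4% were called, 7.32% above and 8.1% below 0. The median over the 33 genes was -0.46, with -0.56 for the S phase, -0.21 for the G1/S and -0.51 for the G2/M genes, beside 0.01 for all genes tested. The G1/S median was -0.36 without wing nub replicate 1 and -0.10 without wing nub replicate 2. With the gene span trend removed the phase medians were -0.47, -0.35 and -0.47. The same 8 libraries enter the comparisons above, so these values are not independent of them.

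The largest interactions were those of stg (-0.92 ± 0.14, adjusted p = 0.00201) and aurB (-0.91 ± 0.15, adjusted p = 0.00282). For stg the haltere against wing difference was -0.61 in nub and 0.31 in tsh cells. For aurB it was -0.61 in nub and 0.30 in tsh cells. In both genes the estimates had opposite signs in the domains, and the tsh difference alone was not called. For CycE (-0.69 ± 0.12, adjusted p = 0.00444) the difference was -0.69 in nub and 0.00 in tsh cells.

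geminin (-0.79 ± 0.15, adjusted p = 0.00552), RnrL (-0.69 ± 0.12, adjusted p = 0.00444) and CycB (-0.61 ± 0.11, adjusted p = 0.00439) also had interactions that were called in each leave-one-out fit and under each other setting tried, as did stg, aurB and CycE. The other 10 genes called were RnrS (-0.73), Mcm5 (-0.74), Mcm6 (-0.56), PCNA (-0.51), Dp (-0.43), polo (-0.70), aurA (-0.79), Cdk1 (-0.62), CycB3 (-0.46) and Bub1 (-0.38). At the other end, Cdk2 was at 0.00 (95% interval -0.24 to 0.25), E2f2 at -0.09 (-0.40 to 0.23), BubR1 at -0.12 (-0.38 to 0.13) and CycD at -0.13 (-0.42 to 0.16). Each of the other 10 calls was lost in at least 1 leave-one-out fit. With single libraries left out, the median over the 33 genes lay between -0.56 (without haltere nub replicate 2) and -0.44. The number called depended on the library left out, among the 33 and among all genes.

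**Figure D4:**
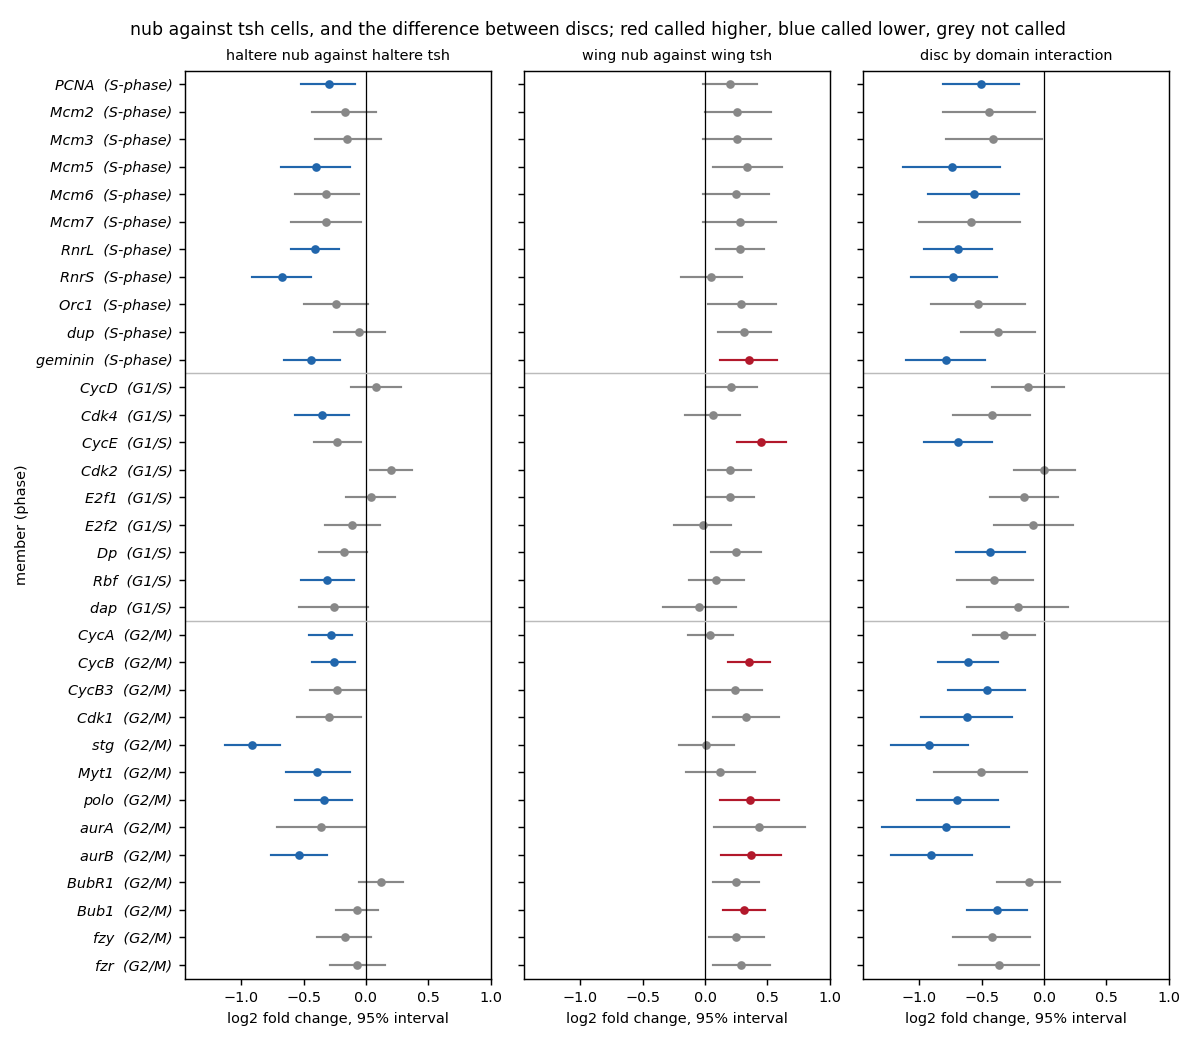
Points are log2 fold changes with 95% intervals (horizontal axis) for the 33 genes (rows, by phase), for nub against tsh cells of the haltere disc (left) and of the wing disc (middle) and for the disc by domain interaction (right); red marks genes called higher, blue genes called lower and grey genes not called. In the haltere disc 13 genes are blue, with stg at -0.91 the farthest to the left, in the wing disc 6 are red, and for the interaction 16 are blue.

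Further cell cycle genes were taken from a list of 124, of which 119 were matched to the files. Of 36 other replication genes tested, 10 were lower and none higher in haltere nub than in wing nub cells. Of 62 other mitotic genes 12 were lower and none higher, and of 19 other G1/S, E2F and DREAM genes 4 were lower and none higher. These are 27.8% of the replication, 19.4% of the mitotic and 21.1% of the G1/S genes. Of all genes tested, 23.3% were called in either direction, which is near these shares. The like figure for calls that are all lower is the 13.6% of all genes tested that were called lower. By smallest adjusted p the first 5 were the mitotic kinesin gene Klp67A (-0.71), the chromatin assembly gene Caf1-105 (-0.65), the DREAM complex gene mip40 (-0.75), tum (-0.47), which encodes a GTPase activating protein of cytokinesis, and dpa (-0.61), which encodes the remaining helicase subunit Mcm4. For tum the levels were 44.9 and 44.0 CPM in haltere nub and 62.6 and 60.1 CPM in wing nub libraries. These groups did not overlap.

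In haltere tsh against wing tsh cells, 7 of the 62 mitotic and 1 of the 36 replication genes were higher, and none of the listed genes was lower. They included the origin recognition gene Orc5 (0.70), the chromosomal passenger gene Incenp (0.39), tum (0.41) and the spindle genes mei-38 (0.60) and asp (0.34). Orc5 stood at 13.8 and 15.2 CPM in haltere tsh and 8.29 and 9.55 CPM in wing tsh libraries. The calls made up 11.3% of the mitotic and 2.78% of the replication genes, and none of the 19 G1/S genes was called. Of all genes tested 1.04% were called higher, which is the like figure, and 3.26% in either direction. No such call was made with only the 4 libraries compared. Fewer were made without either haltere tsh library or without wing tsh replicate 1, and more without wing tsh replicate 2. The number of all genes called also rose in the last of these fits.

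Within the haltere disc 30.6% of the mitotic (19), 22.2% of the replication (8) and 15.8% of the G1/S genes (3) of these lists were lower in nub than in tsh cells and none was higher. Of all genes tested 24.9% were called in either direction, and 15.0% were called lower. The replication and G1/S shares lie below the first of these figures. Both lie above the second, which is the like one, the G1/S share by little. The calls were led by the ubiquitin ligase subunits SkpA (-0.58) and Roc1a (-0.54) and the thymidylate synthase gene Ts (-0.86), with tum (-0.43) and the passenger gene borr (-0.43). Within the wing disc 30.6% of the mitotic (19) and 13.9% of the replication genes (5) were higher in nub than in tsh cells and none was lower, beside 13.8% of all genes called, 5.96% higher. They were led by the condensin gene SMC2 (0.51), pbl (0.41), which encodes the RhoGEF of cytokinesis, tum (0.45), mei-38 (0.63) and Orc2 (0.58). The interaction was called for 32.3% of the mitotic (20), 33.3% of the replication (12) and 15.8% of the G1/S genes (3), all below 0, beside 15.4% of all genes, 8.1% below 0, with tum (-0.88), asp (-0.65), Klp67A (-0.99), pbl (-0.64) and the citron kinase gene sti (-0.71) first.

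Of the 33 genes, 13 overlap another annotated gene, and the use of strand in counting is not given in the sources used here, so their reads may be shared. The overlapping genes with the most reads were SRPK at dup, CG12213 at aurA, cact at fzy and PIG-G at Orc1. PIG-G itself had 35.8 and 38.3 CPM in haltere nub and 63.9 and 46.8 CPM in wing nub libraries, in the same direction as Orc1. CG12213 had 157 and 166 CPM in haltere nub and 197 and 179 CPM in wing nub libraries, many times the reads of aurA and in the same direction. At CycE the overlapping lncRNA:CR44974 reached at most 11.2 CPM in any library. No other annotated gene overlaps stg, aurB, RnrL, RnrS, PCNA, Mcm5, geminin or CycB.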

How the data were processed

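The 8 RNA-seq libraries were analysed, and the 17 ATAC-seq and 11 ChIP-seq samples of the series were not analysed here. The files deposited by the authors hold raw read counts per gene, as their whole numbers and differing totals show, for 17807 FlyBase IDs. Per the submitters' processing notes, the series used the dm6 build with bcl2fastq, HISAT2, Bowtie2 and deepTools, in roles not stated. How reads were assigned to genes (tool, annotation, strand, reads with several matches) is not given in the sources used here. Symbols and coordinates came from RefSeq tables of the Release 6 assembly, on which dm6 is based, and 17710 IDs had a symbol.

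With edgeR 4.0.16 in R 4.3.3, filterByExpr kept 11198 genes and dropped 6609. TMM factors scaled the libraries. All 8 libraries entered a single robust quasi-likelihood fit of the 4 group means, which left 4 residual degrees of freedom. Tests were two-sided, p-values were adjusted by Benjamini-Hochberg over all genes tested, and a gene counts as called below 0.05. Errors after ± are SE. No pair of replicates was a repeated deposit, as they differed by more than counting noise (for genes of at least 20 reads, chi-square per gene lay between 9 and 31.4), which does not show that they are separate biological samples. A read equalled between 0.0104 and 0.0662 CPM of the unscaled library total, and the common biological coefficient of variation was 19.9%. Alternatives were DESeq2 1.42.0, its size factors, library totals alone (chosen after seeing the data), no filter on low counts, only the libraries compared, a replicate block, thinning of haltere nub reads, removal of a lowess trend with gene span, and each library left out in turn. The scripts were checked on simulated counts, for haltere nub against wing nub only. Those counts varied less between libraries than these data, so the check does not measure how many real differences are missed.

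The 33 genes and all lists were chosen with earlier results of these data known. All 33 could be named, with full statistics for those of largest fold change, and of the further lists up to 5 called genes per comparison with the smallest adjusted p. Lists were described by counts and medians, with no set test.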

Additional observations from a re-analysis of the deposited data

Results flagged for a closer look

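The difference between haltere and wing cells was not the same in nub and tsh cells for 16 of the 33 genes, by edgeR's quasi-likelihood test of the disc by domain interaction with Benjamini-Hochberg adjustment (15.4% of all genes tested were called). The S phase genes were PCNA (-0.51), Mcm5 (-0.74), Mcm6 (-0.56), RnrL (-0.69), RnrS (-0.73) and geminin (-0.79). The G1/S genes were CycE (-0.69) and Dp (-0.43). The G2/M genes were CycB (-0.61), CycB3 (-0.46), Cdk1 (-0.62), stg (-0.92), polo (-0.70), aurA (-0.79), aurB (-0.91) and Bub1 (-0.38). The largest adjusted p among them was that of CycB3, 0.0479. The depth of the haltere nub libraries and the many weakly expressed genes seen in wing tsh replicate 1 enter each of these values. With haltere nub reads thinned 17 genes were called, 15 of them among the 16, beside 1613 of all genes. Without wing tsh replicate 1 the median interaction over the 33 genes was -0.44, beside -0.46 in the full fit.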

How the results depend on the processing

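No direction reversed among the called genes, over 672 pairs of a call and a setting, of which 451 kept the call and 221 did not. The number of the 33 genes called was 17 in haltere nub against wing nub cells, and 11 by DESeq2. It was 0 in haltere tsh against wing tsh cells, and 1 by DESeq2 (CycB), 1 with library totals alone (RnrS) and 2 with no filter on low counts (RnrS and polo). It was 6 in wing nub against wing tsh cells, and 1 when only these 4 libraries were fitted and 3 with a replicate block. It was 13 in haltere nub against haltere tsh cells, and 8 by DESeq2. The cause was not tested. With each library left out in turn the counts ran from 3 to 10, from 0 to 6, from 1 to 11, and from 3 to 10 in these 4 comparisons, and from 6 to 22 for the interaction (16). Fewer libraries enter those fits, and a group left with 1 library is assumed to vary like the others. With the replicate block the numbers of the 33 genes called were 17, 0, 3 and 13, and 13 for the interaction. Same-numbered libraries deviated together with a correlation between -0.324 and 0.107 across genes, and the labels give the numbers no meaning, so pairing was not assumed. Removing the gene span trend brought the phase medians closer together, in haltere nub against wing nub cells and in the interaction. Under other scalings the median of all genes stayed between -0.03 and 0.04. With 2 libraries a group, fold changes with an SE near 0.10 limit what can be called, and intervals cover only the spread between these libraries.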

Other observations

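Ratios of reads between partner genes of 1 library do not depend on scaling. The pairs below were chosen after their values were seen and were not tested. The ratio of CycE to Cdk2 reads was 1.1 and 1.21 in haltere nub and 1.98 and 1.9 in wing nub libraries. In tsh cells it was 1.67 and 1.44 in haltere and 1.61 and 1.64 in wing libraries, so haltere nub lay below and wing nub above every other library. The ratio of CycE to its inhibitor gene dap was 2.26 and 2.19 in haltere nub and 4.58 and 3.37 in wing nub libraries, and 2.42 and 1.97 in haltere tsh and 2.84 and 2.67 in wing tsh libraries. Wing nub lay above all other libraries.

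The ratio of stg, which activates Cdk1, to Myt1, which inhibits it, was 5.31 and 5.29 in haltere nub and 6.49 and 7.6 in wing nub libraries. It was 7.66 and 7.6 in haltere tsh and 7.69 and 7.55 in wing tsh libraries, so haltere nub had the lowest values. The ratio of E2f1 to its inhibitor gene Rbf ran the other way, with 6.2 and 6.26 in haltere nub and 5.32 and 5.85 in wing nub libraries, and 5.16 and 4.64 in haltere tsh and 5.97 and 4.51 in wing tsh libraries, the highest values being those of haltere nub. For geminin to dup it was 0.748 and 0.73 in haltere nub and 0.789 and 0.855 in wing nub libraries, and 1.04 and 0.886 in haltere tsh and 0.858 and 0.752 in wing tsh libraries. Haltere nub lay lowest, by little. The ratio of stg to CycB reads was 0.804 and 0.87 in haltere nub and 0.948 and 1.09 in wing nub libraries, and 1.44 and 1.2 in haltere tsh and 1.23 and 1.34 in wing tsh libraries. Both nub groups lay below both tsh groups. For fzy to fzr, the activators of the anaphase promoting complex, the 4 groups overlapped, between 1.15 and 1.43.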
